A study of Mus musculus with 20 samples.

Results

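The SR proteins are nuclear RNA-binding proteins with arginine- and serine-rich tails that mark exons for the spliceosome. The 10 genes described here were taken by symbol (Srsf1, Srsf2, Srsf3, Srsf4, Srsf5, Srsf6, Srsf7, Srsf9, Srsf10 and Srsf11) from a table of 53028 genes, and all 10 were detected well enough to be tested, among 13795 tested genes. They were measured in livers of chow-fed male C57BL/6J mice injected intraperitoneally at 8 weeks of age with a locked nucleic acid (LNA), a chemically stabilised antisense oligonucleotide. Mice 1, 2, 3, 8 and 9 received an LNA against GFP, a sequence absent from these animals, and mice 4, 6, 10, 11 and 12 an LNA against SNORA73, a small nucleolar RNA made from introns of Snhg3 (the sample labels write it Snora37). In both groups the dose was 3 mg/kg, given 3 times on alternate days, and livers were taken 2 days after the last injection. The age is that at injection in the series' design, while the methods for liver ribosomes describe older animals. Those methods also have mice of both groups receive cycloheximide, which holds ribosomes on mRNA, into the tail vein shortly before death. Each of the 10 livers gave 1 polyA-selected library of total RNA from the polysome lysate (the transcriptome) and 1 of RNA from the polysome fractions (the translatome), so that the 20 libraries form 4 groups of 5. Animals of 1 group are separate mice, and the 2 libraries of a mouse share its liver. No untreated mice were analysed here, so the GFP LNA livers are the only reference.

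In the cell, SR proteins bind exonic enhancers, recruit the spliceosome and, for several members, escort spliced mRNA to the export receptor Nxf1. Their own transcripts are known for feedback: many carry a poison exon or a retained intron that brings in an early stop codon, and such transcripts are held in the nucleus or removed by nonsense-mediated decay (NMD). Kinases of the Srpk and Clk families phosphorylate the tail, and transportin-SR (Tnpo3) carries the phosphorylated protein into the nucleus. Ribosome-bearing mRNA is collected in the polysome fractions, and a gene's level there relative to total RNA is described below as its polysome difference. The counts are sums over all transcripts of a gene, so productive, poison-exon and intron-retaining transcripts of a member cannot be told apart.

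Depth was 20005389 to 42023390 estimated counts in total RNA and 14852951 to 33824659 in polysome RNA, with 150 to 5619 counts of a member in a library. Mitochondrially encoded transcripts took 11.2% to 15.4% of total RNA and 1.76% to 3.89% of polysome RNA. The targeted RNA could not be checked, since Snora73a and Snora73b had 0 to 4 counts in every library. Snhg3 lay between 3.89 and 5.17 CPM (counts scaled to library size) in total RNA of GFP LNA livers and between 3.27 and 7.43 CPM in those of SNORA73 LNA livers. Hepatocyte markers (Alb, Apoa1, Ttr and others) summed to at least 39712 CPM in every library. CPM values use library sizes adjusted by TMM (trimmed mean of M values) and are not divided by transcript length, so levels are compared within a gene and not between genes.

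On GRCm38.p6 the members lie on 7 chromosomes. Srsf1 (chr11:88046499-88053757) and Srsf2 (chr11:116849897-116853675) are on chromosome 11, Srsf3 (chr17:29032660-29043372) and Srsf7 (chr17:80200080-80207369) on chromosome 17, and Srsf4 (chr4:131873530-131901725) and Srsf10 (chr4:135855752-135869908) on chromosome 4. Srsf5 is at chr12:80945495-80950507, Srsf6 at chr2:162931508-162937121, Srsf9 at chr5:115327163-115333843 and Srsf11 at chr3:158010915-158036667. RefSeq places no other gene over 7 of the members, and the exceptions (Srsf2, Srsf4 and Srsf9) are taken up with their values.

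Among the members, only Srsf3 and Srsf6 have a RefSeq start that coincides with the edge of the gene span, and their promoters are shown. Both genes had their highest level in mouse 10 in total and in polysome RNA, as did Srsf1, Srsf2, Srsf7 and Srsf9. Each line holds the 250 bases before the start from RefSeq on GRCm38.p6, plus strand, at chr17:29032410-29032659 for Srsf3 and chr2:162931258-162931507 for Srsf6. Capitals mark matches on either strand to the motif CCAAT, to the GC box motif GGGCGG and to the TATA box motif TATAAA.
Srsf3: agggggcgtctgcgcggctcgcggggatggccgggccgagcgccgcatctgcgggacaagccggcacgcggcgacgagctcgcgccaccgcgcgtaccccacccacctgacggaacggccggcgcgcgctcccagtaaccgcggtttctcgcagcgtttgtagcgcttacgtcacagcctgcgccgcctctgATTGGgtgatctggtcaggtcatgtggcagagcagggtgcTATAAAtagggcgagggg
Srsf6: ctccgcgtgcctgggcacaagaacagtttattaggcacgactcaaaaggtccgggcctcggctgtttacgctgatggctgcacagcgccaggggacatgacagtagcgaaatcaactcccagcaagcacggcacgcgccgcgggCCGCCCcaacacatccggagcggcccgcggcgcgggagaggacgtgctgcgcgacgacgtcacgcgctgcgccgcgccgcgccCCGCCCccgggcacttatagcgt
The Srsf3 stretch held 1 CCAAT match beginning 58 bases before the start and 1 TATAAA match beginning 18 bases before it, and no GGGCGG. The Srsf6 stretch held 2 GGGCGG matches, beginning 106 and 23 bases before the start, and neither of the other motifs. Among 32851 RefSeq windows of the same length, 33.8% held CCAAT, 32.7% GGGCGG and 12.4% TATAAA. Windows of 3 members held CCAAT (Srsf2, Srsf3 and Srsf10), those of 9 held GGGCGG (Srsf3 lacked it) and those of 2 held TATAAA (Srsf2 and Srsf3). A member was counted if any of its windows held the motif, and Srsf4 had 3 windows and Srsf11 had 2. The shares are per window, so the counts of members are not on the same basis.

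The first comparison asked how the level of each SR mRNA relative to other genes differed between polysome and total RNA. TMM scaling holds the typical gene near 0 in this comparison. A difference is therefore relative to other genes, and the fraction of an mRNA on polysomes was not measured. Most of the family was lower on polysomes than in total RNA: in the mean of both LNA groups, Srsf1, Srsf2, Srsf5, Srsf6, Srsf7 and Srsf10 were lower, Srsf4, Srsf9 and Srsf11 were higher, and Srsf3 missed the threshold (edgeR quasi-likelihood test, false discovery rate under 0.05 over all genes tested). The 6 lower members stand against 26.9% of all genes called lower, and the 3 higher members against 28.5% called higher. The median log2 polysome difference of the 10 members was -0.51, beside 0.02 over all genes. Within single mice, 9 of 10 members had their difference on 1 side of 0 in all 10 animals, against 39.2% of all genes. The exception was Srsf4, which was higher on polysomes in 9 mice and lower in 1.

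**Figure D1:**
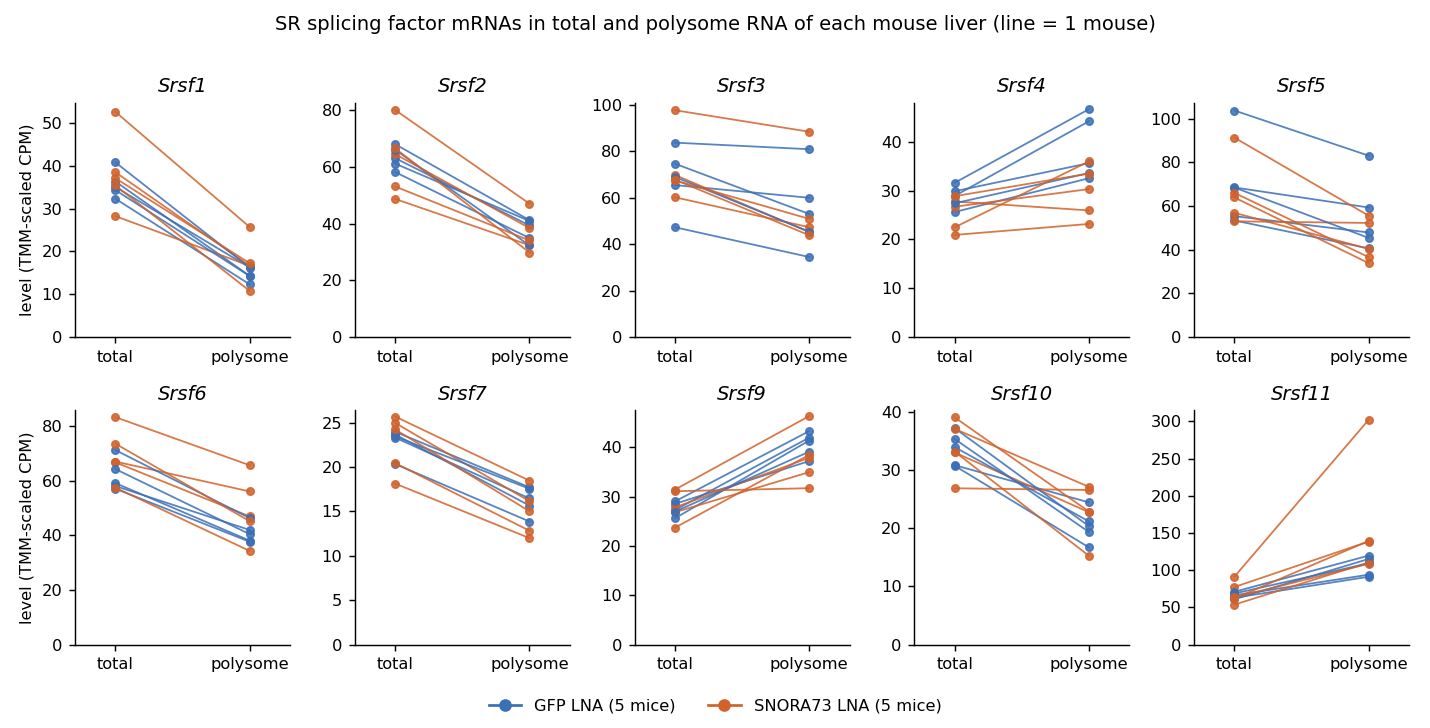
Level of each SR gene (TMM-scaled CPM, vertical axis from 0) in total and polysome RNA, with 1 line per mouse and 5 mice per LNA. Lines slope down in all 10 mice for Srsf1, Srsf2, Srsf3, Srsf5, Srsf6, Srsf7 and Srsf10, and up in all 10 for Srsf9 and Srsf11, with Srsf11 of mouse 11 at 302.4 CPM on polysomes.

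Srsf1 (SF2/ASF) and Srsf2 (SC35) are the founding SR proteins, the former a shuttling splicing factor and the latter a mostly nuclear one. Srsf1 had the lowest polysome difference of the family. Its levels in total RNA were 35.1, 32.3, 36.3, 40.8 and 34.3 CPM in GFP LNA mice 1, 2, 3, 8 and 9, and 38.5, 28.2, 52.6, 37.1 and 35.4 CPM in SNORA73 LNA mice 4, 6, 10, 11 and 12. On polysomes they were 16.2, 12.3, 14.3, 16.2 and 14.2 CPM in the former and 16.6, 16.6, 25.7, 17.2 and 10.7 CPM in the latter. The 10 polysome libraries all lay below the 10 total RNA libraries, as did those of Srsf2, and Srsf9 was separated in the opposite direction (3 of 10 members, against 14.8% of all genes separated either way). Srsf1 was 2.32-fold lower on polysomes (log2 -1.21, SE 0.12, edgeR adjusted p = 6.52e-08), and 4.47% of tested genes had a lower value. In single mice its log2 difference ran from -1.72 in mouse 12 to -0.76 in mouse 6.

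For Srsf2, total RNA held 63.1, 58.2, 61.1, 68.0 and 66.0 CPM in the GFP LNA mice and 64.5, 48.7, 80.0, 66.5 and 53.1 CPM in the SNORA73 LNA mice, in the same order of animals. On polysomes the values were 39.3, 34.9, 40.9, 41.2 and 32.3 CPM, and 38.4, 32.3, 47.0, 29.8 and 34.0 CPM. The lowest total library (mouse 6) was above the highest polysome library (mouse 10). Srsf2 was 1.70-fold lower on polysomes (log2 -0.77, SE 0.10, edgeR adjusted p = 9.41e-07). Srsf2 overlaps Mfsd11, a transporter-like gene, by 1465 bases. Mfsd11 stood at 2.37 to 7.45 CPM in all libraries, and its own difference did not pass the test (log2 -0.20, edgeR adjusted p = 0.270). The part of Mfsd11 in the Srsf2 values was not tested.

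Srsf3 and Srsf7 are small SR proteins that serve as adaptors for mRNA export. In total RNA Srsf3 stood at 65.5, 47.3, 74.7, 83.8 and 69.0 CPM in the GFP LNA mice and at 69.9, 60.2, 97.8, 67.8 and 67.5 CPM in the SNORA73 LNA mice. Its polysome values were 60.0, 34.5, 53.0, 81.0 and 45.4 CPM, and 45.2, 47.3, 88.5, 43.9 and 50.9 CPM. Both ranges overlapped, but the polysome value was below the total value in each of the 10 mice, and mice that were high in 1 RNA (8 and 10) were high in the other. The log2 difference was -0.35 (SE 0.16, 95% interval -0.68 to -0.03, edgeR adjusted p = 0.0586). With the mouse as a replicate block it was -0.39 with an adjusted p of 0.000154, and Srsf3 was then called lower. It was also called lower without mouse 2, 8 or 10 (-0.43 to -0.36, adjusted p = 0.0102 to 0.0433). The processed pseudogene of Srsf3 (Gm12355) had 0 to 3 counts in a library.

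Srsf7 was the steadiest of the lower members from mouse to mouse. Total RNA held 20.3 to 24.0 CPM in the GFP LNA mice and 18.1 to 25.7 CPM in the SNORA73 LNA mice, and polysome RNA 13.9 to 17.7 CPM and 11.99 to 18.5 CPM. It was 1.47-fold lower on polysomes (log2 -0.55, SE 0.09, edgeR adjusted p = 1.45e-05), and the difference in single mice spanned only -0.69 to -0.42. The SD of that difference over mice was 0.10, the smallest of the 10 members, beside 0.36 for Srsf11, the largest.

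Srsf4 (SRp75), Srsf5 (SRp40) and Srsf6 (SRp55) are longer members that, like Srsf1, carry an additional degenerate RNA-recognition motif, and their differences were not all of 1 sign. Srsf6 was 1.46-fold lower on polysomes (log2 -0.54, SE 0.10, edgeR adjusted p = 8.48e-05), from a median of 65.6 CPM in total RNA (57.1 to 83.4) to 43.6 CPM on polysomes (34.3 to 65.7). Srsf5, whose gene is known to respond to insulin in liver-derived cells, was 1.38-fold lower (log2 -0.47, SE 0.15, edgeR adjusted p = 0.0117). Its total RNA ranged from 53.0 to 103.7 CPM with a median of 64.9, and its polysome RNA from 33.8 to 83.0 CPM with a median of 46.6. Mouse 9 held the highest Srsf5 level in both RNAs. In contrast to these members, Srsf4 was 1.26-fold higher on polysomes (log2 0.33, SE 0.09, edgeR adjusted p = 0.00551), at a median of 33.6 CPM (23.2 to 46.7) beside 27.6 CPM (20.9 to 31.6) in total RNA. Mouse 6 was the animal in which it was lower, with a log2 difference of -0.10. Srsf4 overlaps the noncoding RNA Gm12992 by 2248 bases, which did not exceed 2.85 CPM in any library.

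Srsf9 (SRp30c), a close relative of Srsf1, was 1.41-fold higher on polysomes (log2 0.50, SE 0.07, edgeR adjusted p = 6.55e-06). Total RNA held 27.3, 25.6, 28.5, 26.9 and 29.0 CPM in GFP LNA mice 1, 2, 3, 8 and 9 and 27.8, 26.8, 31.4, 31.1 and 23.7 CPM in SNORA73 LNA mice 4, 6, 10, 11 and 12. The polysome libraries held 41.96, 41.4, 37.2, 39.1 and 43.3 CPM, and 37.9, 34.9, 46.3, 31.7 and 38.5 CPM. Every polysome library lay above every total RNA library, though mouse 11 on polysomes (31.7 CPM) was close to mouse 10 in total RNA (31.4 CPM) and had a log2 difference of only 0.03. Gatc, which overlaps the end of Srsf9 by 602 bases, moved the other way (log2 -0.44, edgeR adjusted p = 0.00119) at 11.4 to 25.1 CPM.

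Srsf10 (SRp38), which represses splicing when dephosphorylated, and Srsf11 (SRp54), an atypical member that interacts with the 3' splice site machinery, differed from total RNA in opposite directions. Srsf10 was 1.56-fold lower on polysomes (log2 -0.64, SE 0.10, edgeR adjusted p = 1.27e-05), from a median of 33.6 CPM (26.9 to 39.1) to 21.97 CPM (15.3 to 27.1). In mouse 6 its 2 libraries were nearly equal, with a log2 difference of -0.02, whereas in mouse 12 the difference was -1.12.

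Srsf11 had the highest polysome difference of the family, and 94.8% of tested genes had a lower one. Its levels in total RNA were 60.9, 66.3, 62.8, 68.6 and 70.9 CPM in the GFP LNA mice and 77.3, 53.6, 63.3, 91.2 and 62.0 CPM in the SNORA73 LNA mice. On polysomes they were 115.0, 93.9, 91.1, 109.2 and 119.6 CPM, and 138.5, 110.4, 108.6, 302.4 and 139.4 CPM. Mouse 11 stood apart on polysomes, at more than any other library, and it was also the highest in total RNA. With that mouse left out, the lowest polysome value (91.1 CPM) lay above the highest total RNA value (77.3 CPM). Srsf11 was 1.92-fold higher on polysomes (log2 0.94, SE 0.15, edgeR adjusted p = 2.73e-05), and 0.82 without mouse 11 (adjusted p = 2.72e-07). Its RefSeq entry lists 35 transcripts, 14 of them noncoding, the most of any member.

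Beside these differences, markers of other liver cells also moved between the RNAs: 4 of 6 sinusoidal endothelial markers and 4 of 6 stellate cell markers were lower on polysomes, with 1 of 6 higher in each list. Of 6 hepatocyte markers, 2 were higher and 1 lower, of 6 Kupffer cell markers 0 and 1, of 5 lymphocyte markers 2 and 0, of 5 erythroid markers 4 and 0, and of 5 cholangiocyte markers none passed. Their part in the members' differences was not tested.

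The polysome difference was next taken within each LNA group. In GFP LNA livers, 5 members were lower (Srsf1, Srsf2, Srsf6, Srsf7 and Srsf10) and 3 higher (Srsf4, Srsf9 and Srsf11), against 21.0% and 21.8% of all genes. In SNORA73 LNA livers, 6 were lower (the same 5 and Srsf5) and 2 higher (Srsf9 and Srsf11), against 18.2% and 19.7%. The sign of each of the 10 differences was the same in both groups. Srsf1 was at log2 -1.29 (SE 0.18, edgeR adjusted p = 7.02e-06) in the GFP LNA livers and -1.14 (SE 0.18, 3.75e-05) in the SNORA73 LNA livers. Srsf11 was at 0.68 (SE 0.22, 0.0151) and 1.20 (SE 0.22, 0.000210).

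Srsf4 and Srsf5 were each called in a single LNA group, but the test of the difference between the groups did not pass for either (log2 -0.19 and -0.26, edgeR adjusted p = 0.9999 for both). Srsf4 was at 0.43 (edgeR adjusted p = 0.0133) and 0.23 (0.184), and Srsf5 at -0.34 (0.208) and -0.60 (0.0311). With the mouse as a replicate block, Srsf3 was called in both groups (-0.35, adjusted p = 0.00701, and -0.43, adjusted p = 0.00192) and Srsf5 in the GFP LNA livers (-0.34, adjusted p = 0.0158). Srsf11 in the GFP LNA livers missed the threshold without mouse 1 (0.62, adjusted p = 0.0607), Srsf4 there without mouse 2 or 9 (0.37, adjusted p = 0.0553 and 0.0589), and Srsf5 in the SNORA73 LNA livers without mouse 4, 10, 11 or 12 (-0.62 to -0.53, adjusted p = 0.0528 to 0.101). Without mouse 10, Srsf3 in the SNORA73 LNA livers was called lower (-0.51, adjusted p = 0.0499).

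**Figure D2:**
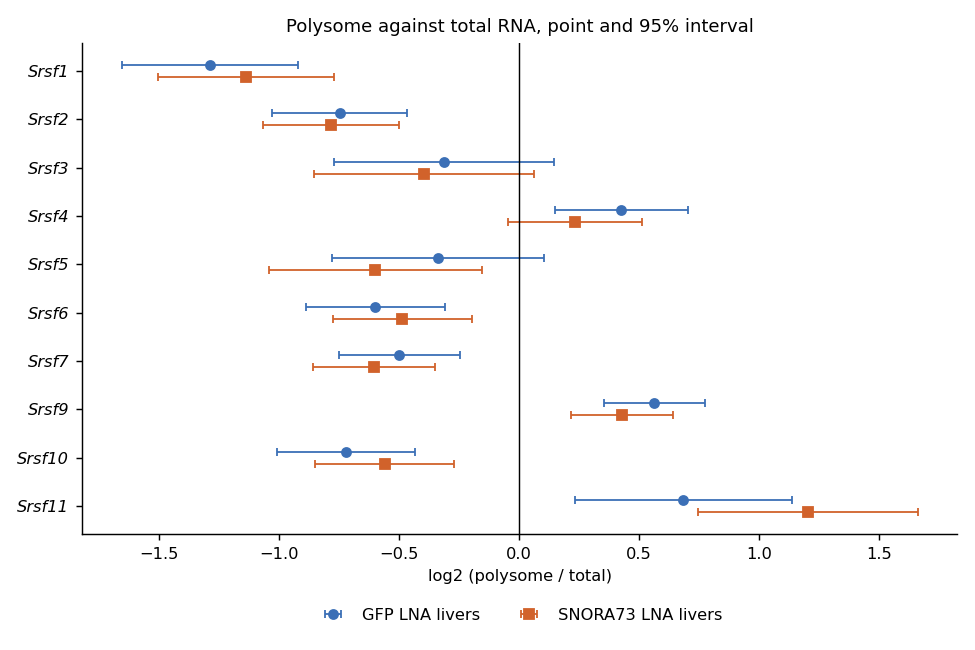
Log2 ratio of polysome to total RNA (horizontal axis) for each SR gene in GFP LNA livers (circles) and SNORA73 LNA livers (squares), 5 mice each, with 95% intervals from the edgeR fit of 20 libraries. Both points lie left of 0 for 7 genes and right of 0 for Srsf4, Srsf9 and Srsf11, and the points of a gene lie within each other's intervals except for Srsf11, where they are at 0.68 and 1.20.

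The second comparison asked whether the LNA against SNORA73 altered the SR mRNAs in total RNA or on polysomes. No member passed the test in total RNA (0.0303% of all genes, 4 in number, did), on polysomes (0.0153%, 2 genes) or for a change of the polysome difference (0.00725%, 1 gene). The counts over all genes moved with the tool and with single mice: DESeq2 called 75 genes in total RNA and 281 on polysomes, and edgeR called 59 and 17 without mouse 9, and 97 and 31 without mice 9 and 10. These shares are therefore an unstable background for the members. At an unadjusted p under 0.05, edgeR counted 1141, 1755 and 401 genes in these comparisons, of which 0, 2 and 0 were members. The count of members called was also 0 with limma-voom and with DESeq2. The LNA groups overlapped for all 10 members in total RNA and on polysomes, where 1.80% and 3.20% of all genes had groups that did not overlap. Of the marker lists, the 6 sinusoidal endothelial markers summed to 111 to 137 CPM in total RNA of GFP LNA livers and to 136 to 152 CPM in that of SNORA73 LNA livers, ranges that overlap. On polysomes their sums were 88.5 to 100.8 CPM and 107.6 to 123.5 CPM, which do not overlap, and all 6 markers had a positive log2 difference there with TMM library sizes (median 0.26), with none called. Other lists were 1-sided the other way on polysomes, also with none called: the log2 differences of all 5 erythroid markers (median -0.53), all 6 Kupffer cell markers (-0.13) and all 4 lymphocyte markers tested (-0.37) were negative, and the summed levels of each list overlapped between the groups. In total RNA, Stab2, a scavenger receptor among the sinusoidal endothelial markers, was called higher (log2 1.06, edgeR adjusted p = 0.0497). The part of these markers in the members' values was not tested. In bulk liver, more cells of a type and more RNA per cell cannot be told apart.

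In total RNA, the log2 differences of SNORA73 LNA from GFP LNA livers ran from -0.18 for Srsf4 (95% interval -0.41 to 0.05) to 0.17 for Srsf6 (-0.08 to 0.41). The smallest adjusted p of a member was 0.700 (edgeR). Srsf1 was at 0.10 (-0.21 to 0.41), Srsf3 at 0.09 (-0.26 to 0.45) and Srsf11 at 0.07 (-0.21 to 0.36). The widest interval was that of Srsf5, at -0.08 (-0.51 to 0.35), and the narrowest that of Srsf9, at 0.03 (-0.17 to 0.24). Intervals of this width leave room for differences in either direction.

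On polysomes, Srsf4 was at -0.37 (95% interval -0.71 to -0.04, unadjusted p = 0.0311, edgeR adjusted p = 0.321) and Srsf11 at 0.60 (0.05 to 1.14, unadjusted p = 0.0350, adjusted p = 0.333). The Srsf4 values were 35.7, 46.7, 32.6, 33.6 and 44.3 CPM in GFP LNA mice 1, 2, 3, 8 and 9, and 30.3, 26.0, 23.2, 33.5 and 36.0 CPM in SNORA73 LNA mice 4, 6, 10, 11 and 12. The lowest 3 libraries were of SNORA73 LNA mice and the highest 2 of GFP LNA mice. The Srsf11 value depended on mouse 11, without which it was 0.24 (adjusted p = 0.545). The other members lay between -0.34 (Srsf5, -0.78 to 0.10) and 0.28 (Srsf6, -0.06 to 0.61). With single mice left out, Srsf5 ran from -0.44 to -0.14 and Srsf6 from 0.16 to 0.39.

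The change of the polysome difference with the SNORA73 LNA was -0.26 for Srsf5 (95% interval -0.88 to 0.36) at the lower end and 0.52 for Srsf11 (-0.12 to 1.16) at the upper end. Srsf11 was at 0.27 without mouse 11. With the mouse as a replicate block it was at 0.44 (edgeR adjusted p = 0.519), and 0.28 (0.669) with the block and without mouse 11, a setting chosen after seeing the data.

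**Figure D3:**
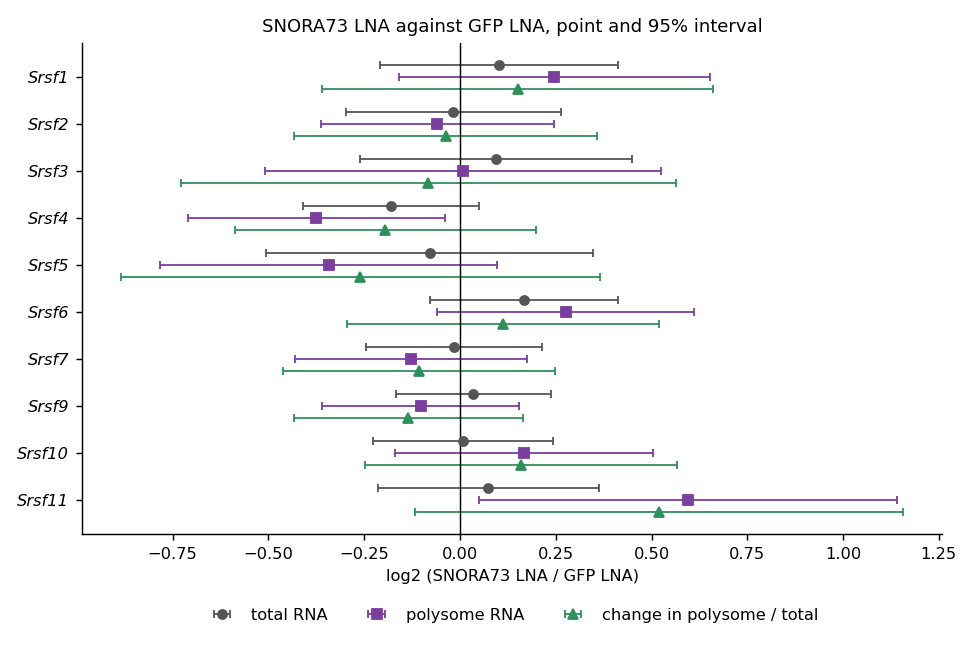
Log2 difference of SNORA73 LNA from GFP LNA livers (5 mice each) for every SR gene in total RNA (circles), polysome RNA (squares) and in the polysome difference (triangles), with 95% intervals from edgeR. Every interval spans 0 except those of Srsf4 (-0.71 to -0.04) and Srsf11 (0.05 to 1.14) in polysome RNA, neither of which passed the adjusted test.

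Single animals shaped the spread within the groups. In total RNA, mouse 10 had the highest level of 7 members (Srsf1, Srsf2, Srsf3, Srsf6, Srsf7, Srsf9 and Srsf10) and the lowest of Srsf4, while it was the highest library for 18.3% of all genes. On polysomes it was the highest for 6 (the same without Srsf10), beside 12.02% of all genes, and again the lowest for Srsf4. Mouse 6 was the lowest in total RNA for 5 members (Srsf1, Srsf2, Srsf5, Srsf10 and Srsf11), beside 12.3% of all genes. On polysomes it was the lowest for none, beside 9.22% of all genes. Srsf5 was highest in mouse 9 and Srsf4 in mouse 2 in both RNAs.

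**Figure D4:**
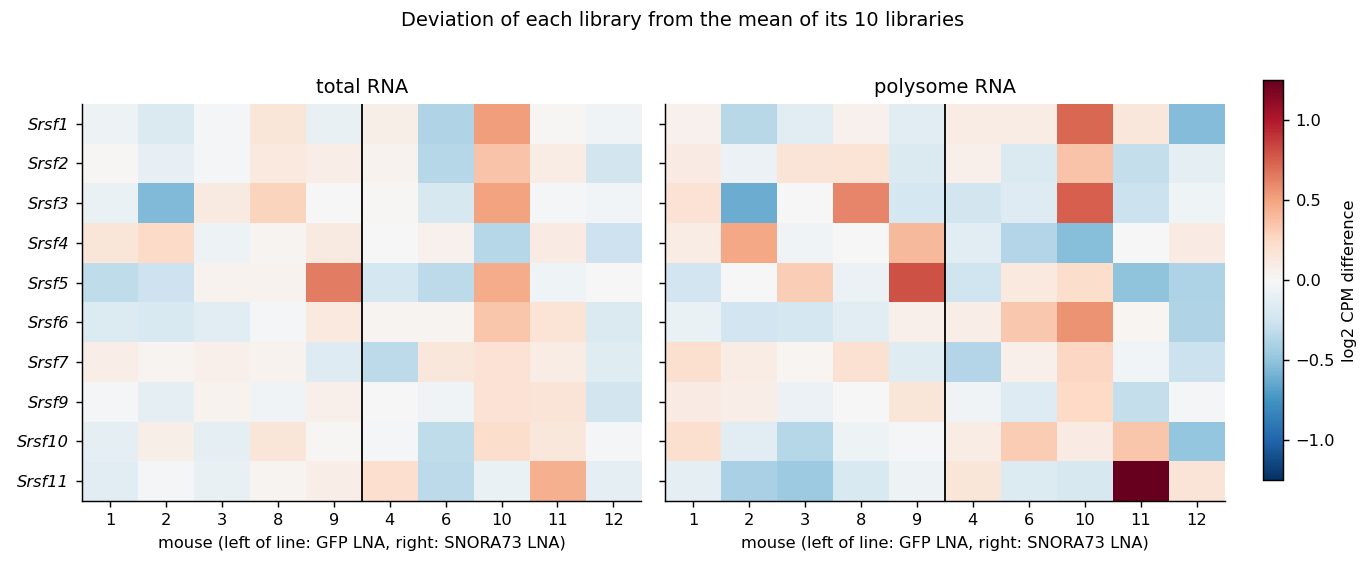
Log2 CPM of each SR gene (rows) in each mouse (columns) minus its mean over the 10 libraries of the same RNA, total RNA on the left and polysome RNA on the right. Mouse 10 is high for most genes and low for Srsf4 in both RNAs, and mouse 11 is high for Srsf11, most of all on polysomes.

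Across the 10 mice, the median Pearson r over the 45 pairs of members was 0.41 in total RNA (-0.71 to 0.88) and 0.14 on polysomes (-0.75 to 0.87). Srsf1 and Srsf2 were the most alike in total RNA (r = 0.88) and Srsf1 and Srsf6 on polysomes (r = 0.87). Srsf3 and Srsf6, whose promoters are shown above, had r = 0.60 and 0.38. These values describe 10 livers that share library scaling, and mouse 10 enters most of them as an extreme.

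Malat1, an abundant nuclear noncoding RNA, was read beside the members. On polysomes it stood at 116, 87.3, 87.8, 87.8 and 144 CPM in GFP LNA mice 1, 2, 3, 8 and 9 and at 428, 216, 255, 1382 and 273 CPM in SNORA73 LNA mice 4, 6, 10, 11 and 12, and the groups did not overlap. In total RNA the groups overlapped, at 390 to 557 CPM and 400 to 1039 CPM. The polysome value of mouse 11, the animal with the high Srsf11, was the highest of Malat1 in any library. Other nuclear noncoding RNAs differed there: Neat1 stood at 32.7 CPM, within the 18.5 to 41.7 CPM of the other polysome libraries. Kcnq1ot1 stood at 3.87 CPM, above their 1.33 to 2.72 CPM. On polysomes the LNA groups overlapped for Neat1 (GFP 20.4 to 41.7 CPM, SNORA73 18.5 to 38.2 CPM) and for Kcnq1ot1 (1.33 to 2.02 CPM and 1.55 to 3.87 CPM). The difference of Malat1 between LNA groups on polysomes did not pass the test (log2 2.29, SE 0.46, edgeR adjusted p = 0.0857). Its size depended on mouse 11, and the other SNORA73 LNA mice, at 216 to 428 CPM, also lay above the GFP LNA mice. Polysome RNA of mouse 11 also had the lowest mean correlation with the other polysome libraries (0.933) and was the highest library for 20.4% of all genes. The part of nuclear RNA in the Srsf11 values was not tested.

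**Figure D5:**
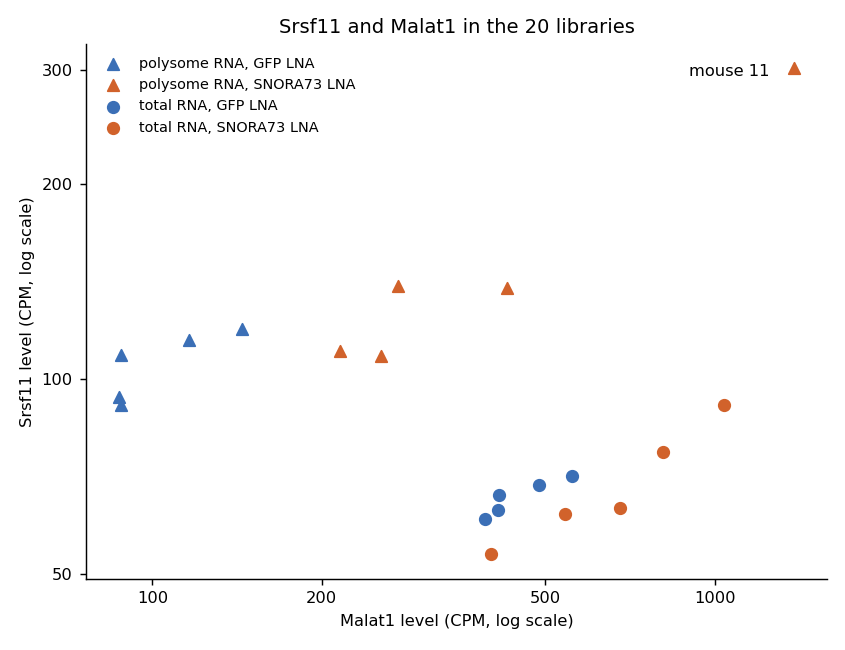
Srsf11 level against Malat1 level (both TMM-scaled CPM on log axes) in the 20 libraries, circles for total and triangles for polysome RNA, coloured by LNA. Polysome RNA of mouse 11 lies apart at 1382 CPM of Malat1 and 302.4 CPM of Srsf11, and the other 9 polysome libraries hold 91.1 to 139.4 CPM of Srsf11.

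Of a list of 6 nuclear noncoding RNAs, 3 were measured, and in the mean of both LNA groups these were lower on polysomes: Malat1 (log2 -1.28, SE 0.28, edgeR adjusted p = 0.000524), Neat1, the scaffold of paraspeckles (-0.99, SE 0.19, 0.000169), and Kcnq1ot1, an imprinted antisense RNA (-0.75, SE 0.17, 0.00100). Within groups, 3 of 3 were called lower in GFP LNA livers and 2 of 3 in SNORA73 LNA livers. Malat1 was at -2.11 (SE 0.40, edgeR adjusted p = 0.000255) in the former and -0.44 (SE 0.38, 0.393) in the latter. In mouse 11 its polysome level (1382 CPM) was above its total RNA level (1039 CPM). In SNORA73 LNA mice 4, 6, 10 and 12 it was lower on polysomes (428, 216, 255 and 273 CPM) than in total RNA (810, 400, 678 and 542 CPM). The -0.44 therefore depended on mouse 11. The change of 1.67 between the groups (SE 0.55) did not pass the adjusted test (edgeR adjusted p = 0.9999). Its size also depended on mouse 11, the only animal with Malat1 higher on polysomes. Srsf1 lay above Malat1 in the GFP LNA livers (-1.29 beside -2.11) and below it in the SNORA73 LNA livers (-1.14 beside -0.44).

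The wider pathway was counted from lists chosen by function, beside 28.5% of all genes called higher and 26.9% called lower on polysomes. Polysome RNA of mouse 11 had the highest polysome sum of each list below, and the counts include it. For the other SR family it was 2280 CPM, beside 887 to 1260 CPM in the other polysome libraries. Of 18 tested other genes of the SR and SR-related family, 10 were higher and 3 lower on polysomes, with a median log2 difference of 0.31. The highest 3 were Acin1 (1.22, SE 0.16), Rsrc1 (0.94, SE 0.14) and Luc7l3 (0.82, SE 0.16), the last a U1 snRNP-associated protein. The 3 lower genes were Tra2a (-0.66, SE 0.13) and Tra2b (-0.58, SE 0.09), SR-like splicing activators that also carry a poison exon, and Luc7l2 (-0.37, SE 0.13).

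Of 7 SR protein kinase genes, Srpk2 was higher (0.45, SE 0.15) and Clk4 (-0.44, SE 0.11) and Clk1 (-0.30, SE 0.12) were lower. Clk1 is known for a nuclear, intron-retaining transcript. Of 9 import and export partners, 5 were higher, led by Nxt1 (0.87, SE 0.12), the partner of Nxf1, Thoc5 (0.56, SE 0.11) and Ddx39b (0.54, SE 0.07), an export helicase, and 1 was lower, the import receptor Tnpo1 (-0.92, SE 0.08).

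The hnRNP proteins, which often oppose SR proteins at splice sites, were also found on both sides: 5 of 23 were higher and 11 lower, their median being -0.22. Hnrnpr (0.82, SE 0.15), Hnrnpa2b1 (0.78, SE 0.17) and Hnrnph3 (0.77, SE 0.12) led the former, and Ptbp3 (-1.64, SE 0.19), Ptbp2 (-1.01, SE 0.15) and Hnrnpa0 (-0.86, SE 0.06) the latter. Of 10 NMD factors, 6 were higher, led by Upf3a (1.16, SE 0.14), Upf3b (0.997, SE 0.18) and Smg6 (0.95, SE 0.20), and the median of the list was 0.69. Smg1, the kinase that phosphorylates Upf1, was lower (-0.50, SE 0.13). In polysome RNA of mouse 11 the NMD list summed to 551 CPM, beside 212 to 286 CPM in the other polysome libraries. The hnRNP list summed there to 4684 CPM, beside 1990 to 2801 CPM. No gene of these 6 lists passed the test between LNA groups in total RNA, on polysomes or for the change of the polysome difference. The uncalled log2 differences of the other SR family were positive for 16 of 18 genes on polysomes (median 0.40) and 15 in total RNA (0.15). Those of the hnRNP proteins were positive for 15 and 13 of 23, and those of the import and export partners for 5 and 9 of 9.

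The 5 genes outside the family whose log2 CPM followed the members' mean most closely over the 20 libraries were Gm45551 (Pearson r = 0.96), G3bp2 (0.94), Abca1 (0.93), Sowahc (0.93) and Cldn2 (0.92). All 5 were lower on polysomes, by log2 values between -1.36 (Abca1) and -0.84 (Cldn2), so that part of each r is the step between the RNAs that the libraries share.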

How the data were processed

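PolyA-selected, reversely stranded libraries of 100 bp paired reads were sequenced from total and polysome RNA of 10 livers. The table deposited holds estimated counts by gene. To make it, the authors filtered reads with fastp (Phred 15), discarded those matching rRNA, quantified transcripts of Ensembl 102 (kallisto 0.46.2) and summed them with tximport. The submitters' processing notes name GRCm38. The strand option of kallisto is not given in the sources used here, and kallisto shares ambiguous reads among transcripts, so counts of overlapping or near-identical genes are uncertain.

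Estimated counts were rounded. Genes above 0.5 CPM in at least 4 libraries of a fit were kept, scaled by TMM and tested with edgeR 4.0.16 (R 4.3.3), with Benjamini-Hochberg adjustment over all genes tested and calls at a false discovery rate under 0.05. Polysome against total RNA and its change with LNA came from 1 fit of 20 libraries in 4 groups, and LNA effects from 10 libraries of each RNA. Intervals are 95% and use the fit's degrees of freedom. Log2 CPM used a prior count of 0.5, and counting error is included in the spread between mice. Limma 3.58.1 (voom) and DESeq2 1.42.0, other scalings and filters, and leaving out mice were the alternatives. The procedure was also run on simulated data. The simulated libraries were drawn independently, so that run does not cover libraries that share a liver.

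Total and polysome libraries of a mouse come from the same liver. Their deviations from group means correlated in every mouse (0.10 to 0.51), and 9 of 10 polysome libraries matched their own mouse best, so a fit with the mouse as a replicate block is given where it changes a call. The study analysed 4 mice per group without naming them, so all 5 were used. The members, the gene lists (other SR family, kinases, import and export partners, hnRNP proteins, NMD factors, nuclear RNAs and markers of 7 cell types) and the tests were chosen with earlier results of these data known. Named were all members and the 5 genes most alike to the members' mean. Up to 3 called genes per direction and list, those with the largest polysome difference, were also named. Malat1, Neat1 and Kcnq1ot1 by library, Stab2, Gatc, Mfsd11, Gm12992, Gm12355 and Snhg3 were added after their values were seen. 1 result that the rule would name is not reported here.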

Additional observations from a re-analysis of the deposited data

Results flagged for a closer look

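Of 60 sets of 5 mice checked (each member in each RNA and LNA group, and its polysome difference in each LNA group), 4 held a library separated from the rest by more than Dixon's 95% limit (0.71 of the range). Chance alone separates a library in about 1 in 20 such sets. Srsf3 of mouse 10 was the highest of the SNORA73 LNA livers in total RNA, at 97.8 CPM with the next library at 69.9, and on polysomes, at 88.5 CPM with the next at 50.9. Srsf7 of mouse 9 was the lowest of the GFP LNA livers in total RNA, at 20.3 CPM with the next at 23.3. Srsf11 of mouse 11 was the highest of the SNORA73 LNA livers on polysomes, at 302.4 CPM with the next at 139.4.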

How the results depend on the processing

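The sign of the polysome difference held for all 10 members under every alternative run, in the mean of both groups and within each. In the mean, 9 members stayed called throughout, and Srsf3 was called under 11 of 20 alternatives; its adjusted p was 0.0348 with limma-voom, 0.0348 with DESeq2 and 0.0503 without a filter on low counts. Between LNA groups and for the change with LNA, no member was called under any alternative. With the mouse as a replicate block, 10 members were called in the mean, 10 in the GFP LNA livers and 9 in the SNORA73 LNA livers, while this fit also raised the genes called over all 13795 from 7650 to 9042, from 5909 to 7738 and from 5238 to 7048. No member's call changed with the block beyond those of Srsf3 and Srsf5 given above. Counts over all genes between LNA groups moved most, and the cause was not tested. In total RNA (4 genes) the count was 75 with DESeq2, 2 with library totals in place of TMM, 13 without a filter and 2 at CPM above 1 in every library. It was 97 without mice 9 and 10, and 0 to 59 over the other leave-outs of single mice or 1 per group. On polysomes (2 genes) it was 281 with DESeq2, 0 with library totals, 72 without a filter, 31 at CPM above 1, 317 in a single fit of 20 libraries, 31 without mice 9 and 10, and 0 to 44 over the leave-outs. For the change of the polysome difference (1 gene) it was 7 with DESeq2, 0 with limma-voom, at CPM above 1, without mice 9 and 10 and with the replicate block without mouse 11 (the last chosen after seeing the data), and 1 to 2 over the leave-outs.

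Signs that turned belonged to uncalled log2 differences between LNA groups. Library totals, under which the median of all genes was -0.14 in total RNA (0.0070 with TMM) and -0.17 on polysomes (-0.011 with TMM), gave -0.053 for Srsf1, -0.057 for Srsf3, -0.11 for Srsf9, -0.14 for Srsf10 and -0.067 for Srsf11 in total RNA, and -0.16 for Srsf3 on polysomes. In total RNA, Srsf10 was at -0.013 without a filter and at -0.0039 at CPM above 1, and on polysomes Srsf3 was at -0.0064 without a filter. Without mice 9 and 10, Srsf1 was at -0.053, Srsf3 at -0.030 and Srsf10 at -0.044 in total RNA, and Srsf3 at -0.28 on polysomes. The change of the polysome difference of Srsf2 was 0.063 with the replicate block without mouse 11. Over the leave-outs in total RNA, Srsf1 ran from -0.077 to 0.24, Srsf2 from -0.15 to 0.087, Srsf3 from -0.15 to 0.24, Srsf5 from -0.31 to 0.18, Srsf7 from -0.091 to 0.068, Srsf9 from -0.035 to 0.12, Srsf10 from -0.084 to 0.12 and Srsf11 from -0.073 to 0.19. On polysomes, Srsf2 ran from -0.19 to 0.041 and Srsf3 from -0.35 to 0.26, and for the change, Srsf2 from -0.10 to 0.050 and Srsf3 from -0.18 to 0.015. Each member had at least 150 counts in every library.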
